A study of Mus musculus with 5 samples.

Results

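Primary granule genes of myeloid cells did not separate Lrf knockout from control long-term haematopoietic stem cells (LT-HSCs): the 5 genes Mpo, Elane, Prtn3, Ctsg and Ms4a3 were highest in 1 knockout array and lowest in another. The genes were chosen by name from their known role, and the values are those of each probe set that the platform annotation assigns to 1 of them alone. Each gene had 1 such probe set, so 5 probe sets of 45037 were read, and 5 of 5 passed the filter on dim signals. The RNA came from LT-HSCs of C57BL/6 mice aged 4 weeks, sorted as LSK cells (lineage-negative, Sca-1-positive, Kit-positive) that were IL7Ra-Flt3-CD150+CD48-, 9 days after the first injection of pIpC. The 2 control mice were Zbtb7a Flox/+ Mx1-Cre+ and the 3 knockout mice were Zbtb7a Flox/Flox Mx1-Cre+, where Zbtb7a encodes LRF, a transcriptional repressor. All groups carried Cre under the interferon-responsive Mx1 promoter and received 2 injections of pIpC (250 µg), a double-stranded RNA analogue that induces it, so the controls had also been exposed to pIpC and could lose 1 Zbtb7a allele. Mx1-Cre acts in many cell types besides stem cells. The description of knockout replicate 3 names 2 animals, so whether each array stands for a single mouse is not settled, and p-values measure the spread between these arrays.

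Primary (azurophil) granules are the first granules made in the neutrophil lineage, at the promyelocyte stage, and their proteins are transcribed before those of the secondary granules. Myeloperoxidase, encoded by Mpo, makes hypochlorous acid from hydrogen peroxide and chloride. Elane, Prtn3 and Ctsg encode the serine proteases neutrophil elastase, proteinase 3 and cathepsin G, which are stored active and bound to proteoglycan. Ms4a3 encodes a membrane protein of the MS4A family and marks granulocyte-monocyte progenitors. Transcripts of such genes are also found at low levels in multipotent progenitors, where they are read as signs of myeloid priming.

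The upstream sequences of the 5 genes are shown because their levels moved in parallel across the arrays. Each is the stretch of 250 bases that ends just before the annotated transcription start, read 5′ to 3′ on the gene's strand from the RefSeq promoter table (GRCm38.p6), and capitals mark the letters GAGGAA, a core recognised by ETS factors such as PU.1.
Mpo, chr11:87793534-87793783, plus strand: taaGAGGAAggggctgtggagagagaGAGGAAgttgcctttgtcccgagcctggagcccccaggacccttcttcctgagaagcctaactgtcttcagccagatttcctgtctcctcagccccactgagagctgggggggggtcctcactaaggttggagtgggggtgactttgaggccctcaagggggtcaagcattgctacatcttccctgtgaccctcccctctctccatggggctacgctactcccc
Elane, chr10:79886062-79886311, plus strand: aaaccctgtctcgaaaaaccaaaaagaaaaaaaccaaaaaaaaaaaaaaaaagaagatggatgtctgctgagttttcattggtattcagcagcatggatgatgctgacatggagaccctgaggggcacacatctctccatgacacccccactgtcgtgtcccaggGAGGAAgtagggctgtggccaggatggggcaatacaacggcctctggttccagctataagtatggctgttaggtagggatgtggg
Prtn3, chr10:79879417-79879666, plus strand: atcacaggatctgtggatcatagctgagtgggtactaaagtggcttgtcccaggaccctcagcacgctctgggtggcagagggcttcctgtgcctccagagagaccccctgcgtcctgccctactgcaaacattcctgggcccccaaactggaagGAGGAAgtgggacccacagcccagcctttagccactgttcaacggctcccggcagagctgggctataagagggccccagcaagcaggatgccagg
Ctsg, chr14:56102575-56102824, minus strand: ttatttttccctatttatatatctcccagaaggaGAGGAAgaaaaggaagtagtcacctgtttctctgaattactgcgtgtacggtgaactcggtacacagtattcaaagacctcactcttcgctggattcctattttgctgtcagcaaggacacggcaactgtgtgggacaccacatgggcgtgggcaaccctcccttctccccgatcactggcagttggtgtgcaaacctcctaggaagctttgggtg
Ms4a3, chr19:11640852-11641101, minus strand: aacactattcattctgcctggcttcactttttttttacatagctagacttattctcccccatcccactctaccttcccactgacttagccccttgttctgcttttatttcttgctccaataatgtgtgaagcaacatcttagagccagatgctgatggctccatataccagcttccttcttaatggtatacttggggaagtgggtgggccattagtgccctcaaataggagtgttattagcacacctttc
The letters searched were chosen after the windows were seen, so the shares of all windows given beside the counts are no test. Searched on both strands, GAGGAA occurred in 4 of the 5 windows, all but that of Ms4a3, and in 23.3% of 32851 promoter windows of this length. In Elane it began 85 bases and in Prtn3 95 bases before the start, and both of these windows also held TATAAG close to the start, at 31 and 32 bases before it. The TATA search letters TATAAN were found in 3 of the 5 windows, against 22.7% of all windows, although in Ctsg the match lay on the opposite strand 237 bases before the start. The MYB core AACNG was found in 4 of 5, against 74.2% of all windows. The RUNX core TGTGGT was found in 1 of 5, against 14% of all windows. The C/EBP letters TTGCNNAA were in none of the 5, against 9.56% of all windows, which says only that these letters are not in these windows. No match in these windows overlapped another (0 overlapping pairs), and a match is a description of letters and not a binding site.

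Median signals of the arrays (log2) ranged from 6.38 to 6.40, and the brightest signals from 15.19 to 15.29. The array of knockout replicate 2 differed most from the rest, with correlations of 0.945 to 0.970 with the other arrays over 45037 probe sets, against 0.977 to 0.990 for the remaining pairs. Its 3′ minus 5′ signal difference was 3.85 for Actb and 4.67 for Gapdh, against 4.90 to 5.21 and 5.06 to 5.17 elsewhere. Several positive markers of the gate and of stem cells were present but dimmer in that array: Kit read 9.60 there and 11.12 to 11.82 elsewhere, Slamf1 (CD150) 6.60 against 8.06 to 9.16, and Mecom 8.38 against 10.70 to 11.68. Of the genes whose proteins the gate excludes, Cd48 read 9.97 there and 7.87 to 8.59 elsewhere, and Flt3 read 8.56 there, within the 8.25 to 9.50 of the others. Il7r read 6.21 and 7.30 in controls and 9.35, 10.50 and 7.44 in knockouts (difference 2.34, SE 0.98, limma adjusted p = 1). Each knockout thus lay above both controls, which held for 1 of 14 stem cell and gate genes and 3.61% of all probe sets tested. The members' results are given with and without knockout replicate 2.

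Mpo gave a log2 intensity of 12.89 and 13.22 in control replicates 1 and 2 and of 12.50, 13.89 and 13.01 in knockout replicates 1, 2 and 3. The lowest and the highest of the 5 values were both knockouts, and the groups overlapped. The control mean was 13.06 ± 0.23 (SD, n = 2) and the knockout mean 13.13 ± 0.70 (SD, n = 3), so that knockout minus control was 0.08 on the log2 scale (SE 0.45, 95% interval -1.10 to 1.25; limma adjusted p = 1). Mpo was the member with the smallest distance between its lowest and highest array, 1.39, and its signal was brighter than that of 99.3% of probe sets.

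Among the proteases, Elane gave log2 intensities of 9.68 and 9.58 in the controls and of 9.04, 11.18 and 9.47 in knockout replicates 1, 2 and 3. The controls lay 0.10 apart while the knockouts spanned 2.15, on both sides of the controls. The knockout minus control difference was 0.27 (SE 0.69, 95% interval -1.54 to 2.07; limma adjusted p = 1), which on the linear scale is a 1.20-fold difference with an interval from 0.343 to 4.21. Prtn3, whose gene lies next to Elane, read 11.56 and 12.18 in controls and 11.25, 13.10 and 11.87 in knockouts. Knockout replicate 3 lay between the controls, and its difference was 0.21 (SE 0.60, 95% interval -1.38 to 1.79; limma adjusted p = 1). Ctsg read 10.55 and 11.03 in controls and 10.09, 12.12 and 10.83 in knockouts. It had the same order of arrays as Mpo and Prtn3, with a difference of 0.23 (SE 0.64, 95% interval -1.46 to 1.91; limma adjusted p = 1).

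Ms4a3 had the widest range of the 5 genes, 2.33 on the log2 scale. It read 9.31 and 9.29 in the controls, which lay 0.01 apart, and 8.50, 10.82 and 9.26 in knockout replicates 1, 2 and 3. Knockout replicate 3 was thus within 0.05 of the control mean, while replicates 1 and 2 lay 0.80 below and 1.52 above it. The difference of 0.22 (SE 0.72, 95% interval -1.66 to 2.11; limma adjusted p = 1) was smaller than the SD of 1.19 among the 3 knockouts.

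**Figure D1:**
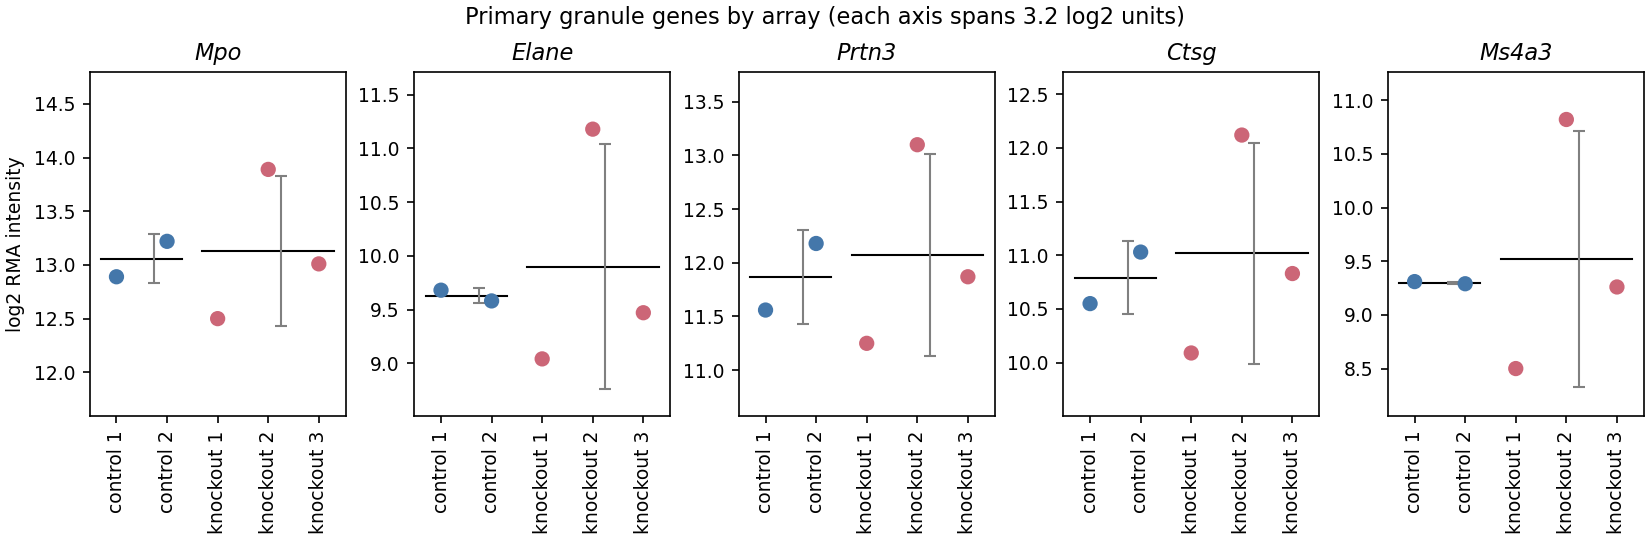
Log2 RMA intensity (y axis) of Mpo, Elane, Prtn3, Ctsg and Ms4a3 in each of the 5 arrays (x axis), controls in blue and knockouts in red. Black lines are group means and grey bars the SD (n = 2 and n = 3); knockout 2 is the highest and knockout 1 the lowest array in each panel.

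For 5 of 5 genes the knockout mean lay above the control mean, by 0.08 to 0.27 with a median of 0.22, beside a median of -0.014 over the 27022 probe sets tested. The limma test called 0 of 5 at an adjusted p under 0.05, as it called 0 of all probe sets tested (0%), and 0 of 5 had an unadjusted p under 0.05 (1.13% of all). The groups did not overlap for 0 of 5 (7.95% of all in either direction, 3.61% with knockouts higher and 4.34% with knockouts lower). Exact two-sided permutation p-values were 0.9 for Mpo, Prtn3 and Ctsg and 1 for Elane and Ms4a3, where 2 against 3 arrays allow no p below 0.1. With so few arrays the intervals are wide: for Ms4a3 the interval runs from 0.317-fold to 4.31-fold. The size of difference that these arrays could detect was not computed.

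The direction of the group difference turned for 5 of 5 genes without knockout replicate 2, and for 3 of 5 without control replicate 1 (-0.087 for Mpo, -0.11 for Prtn3 and -0.012 for Ctsg). Knockout replicate 2 lay above the mean of the other 4 arrays by 0.99 for Mpo, 1.38 for Prtn3, 1.50 for Ctsg, 1.73 for Ms4a3 and 1.74 for Elane, or 1.98-fold to 3.35-fold. An excess of log2 1 or more in this array was found for 4 of 5 genes and for 6.69% of all probe sets tested. Without this array the difference was -0.30 (SE 0.25) for Mpo, -0.38 (SE 0.20) for Elane, -0.31 (SE 0.34) for Prtn3, -0.33 (SE 0.34) for Ctsg and -0.42 (SE 0.30) for Ms4a3. The smallest of these limma p-values was 0.137 unadjusted, that of Elane (adjusted p = 0.955), so these did not pass either. Most of this lower mean came from knockout replicate 1, which lay 0.56 to 0.80 below the control mean for the 5 genes (-0.56 for Mpo, -0.80 for Ms4a3), while replicate 3 differed from it by -0.16 to 0.04. Without knockout replicate 1 the differences were 0.39 for Mpo, 0.70 for Elane, 0.61 for Prtn3, 0.69 for Ctsg and 0.74 for Ms4a3, none of which was called.

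**Figure D2:**
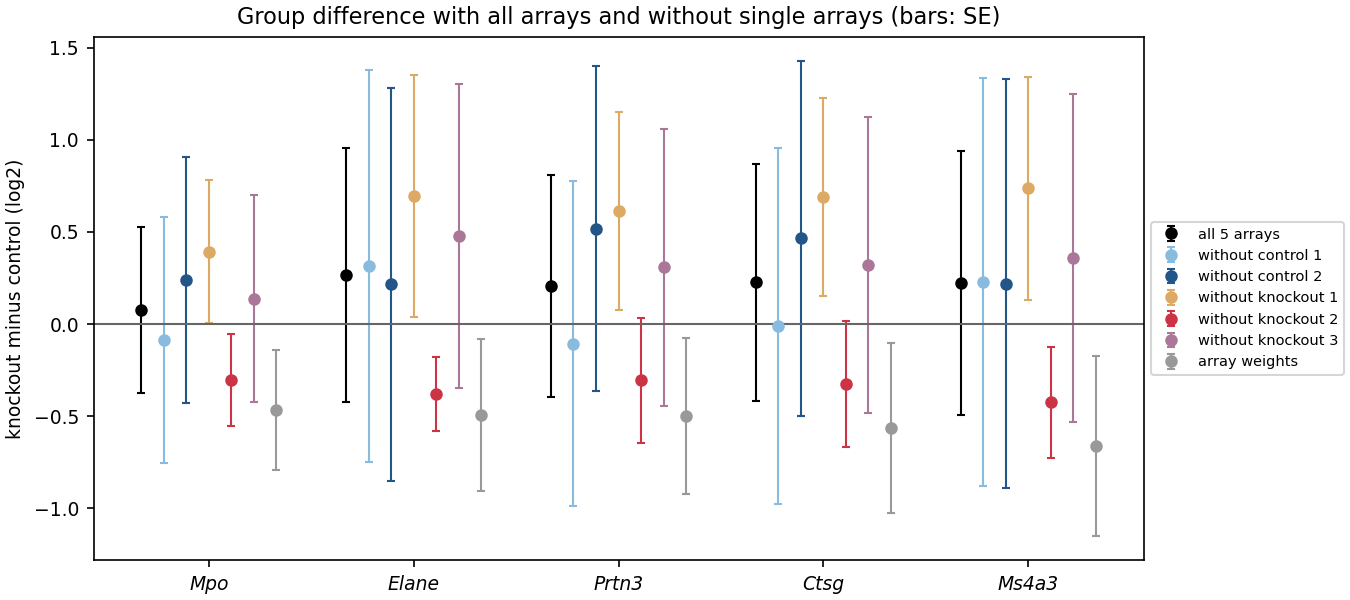
Knockout minus control difference in log2 intensity (y axis) for each gene (x axis), with all 5 arrays, without each array in turn, and with limma's array weights; bars are SE. The points without knockout 2 and those with array weights lie below 0 for all 5 genes, and the points without knockout 1 are the highest for each gene.

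The spread among arrays was shared by the 5 genes. Knockout replicate 2 was highest and replicate 1 lowest for 5 of 5, a pattern noted after the values were seen; 8.02% of all probe sets tested had it, and 26.7% were highest in replicate 2. The mean of the 5 genes, each centred on its own mean, was 1.18 in knockout replicate 2, -0.77 in replicate 1 and -0.16 in replicate 3, with -0.25 and 0.01 in the controls. Ctsg followed this mean most closely, with a root-mean-square difference of 0.08, and Mpo least, with 0.20. The members fell into different orders in the middle: control replicate 2 was above control replicate 1 for Mpo (by 0.32), Prtn3 (0.63) and Ctsg (0.48), while the controls of Elane and Ms4a3 were within 0.10 of each other. In bulk samples, more cells of a type and more RNA per cell cannot be told apart.

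Among other proteins of primary granules and of granule assembly, 12 of 17 listed genes were measured and passed the filter, 0 were called, and 11 of 12 had a lower mean in knockouts (median difference -0.17, and -0.29 with 11 of 12 negative without knockout replicate 2). The median difference over all 12813 genes past the filter was -0.030, and 48.9% of them were negative without that array. Knockout replicate 2 was highest for 5 of 12 (26% of all genes past the filter). For 4 of 12 it was highest and replicate 1 lowest, as in the members (8.69% of all). Gaa, the gene of smallest p in this list, was lowest in knockout replicate 2, with 8.80 there and 9.52 to 9.94 elsewhere. The listed Prss57 and Bpi were not analysed here. Ctsc, the protease cathepsin C that activates elastase, proteinase 3 and cathepsin G, read 12.14 and 12.16 in controls and 11.77, 12.54 and 11.87 in knockouts, the same extremes as the members within a range of 0.77. Srgn, the proteoglycan serglycin that holds the proteases in the granule, differed by 0.30 (SE 0.31), the 1 positive gene of this list. Lyz2, lysozyme M, spanned 4.03 and read 13.83 and 12.20 in controls and 10.57, 14.60 and 11.96 in knockouts. Its control replicate 1 was thus high too, unlike in the members; lysozyme is also made in macrophages and later granules, and Lyz1 and Lyz2 are near-identical, so their signals may be shared.

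Of the inhibitors of these proteases, 4 of 12 listed genes could be tested and 0 were called; 3 of 4 had a lower mean in knockouts (median -0.48), and 4 of 4 without knockout replicate 2 (median -0.90). Serpinb1a, a cytosolic inhibitor of elastase, proteinase 3 and cathepsin G, read 12.37 and 11.29 in controls and 10.56, 12.81 and 11.41 in knockouts, with a difference of -0.24 (SE 0.76). Slpi, a secreted elastase inhibitor, reached 12.83 in knockout replicate 2, against 8.31 to 10.22 in the other arrays. Serpinb6a, an intracellular serpin that inhibits cathepsin G, was the 1 inhibitor whose groups did not overlap (7.95% of all probe sets). It read 10.51 and 10.08 in controls and 8.85, 9.30 and 9.81 in knockouts, a difference of -0.97 (SE 0.34; unadjusted p = 0.0378, limma adjusted p = 1), and -0.96 without knockout replicate 2.

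The list of regulators, which also holds the receptor genes Csf3r, Csf2ra and Csf1r, was measured for 14 of 15 genes. Of these, 0 were called and 6 had a higher mean in knockouts (median -0.04). Without knockout replicate 2, 10 of 14 were negative with a median of -0.35. Cebpe was not analysed here. Cebpa, the C/EBP factor required for granulocyte commitment, read 7.25 and 6.55 in controls and 6.66, 7.80 and 6.26 in knockouts. Spi1, which encodes PU.1, read 9.30 and 9.03 in controls and 8.24, 10.15 and 8.67 in knockouts, again highest in replicate 2 and lowest in replicate 1. Gfi1, a repressor needed for neutrophil differentiation, differed by -0.02 (SE 0.38). Runx1 and Myb went the other way in knockout replicate 2: Runx1 read 9.21 there and 9.76 to 10.16 elsewhere, and Myb 12.31 against 12.66 to 13.15. Among genes named for their p, Irf8, a factor of monocytes and dendritic cells, differed by 1.10 (SE 0.97) and read 12.13 in replicate 2 against 8.95 to 9.47 elsewhere. Etv6, an ETS repressor, differed by -0.64 (SE 0.42).

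Genes of later neutrophil stages shared the extremes of the members among the knockouts but had other values in control replicate 1. Of 16 listed genes of secondary granules and mature neutrophils, 13 were measured, 0 were called, and 13 of 13 had a lower mean in knockouts (median -0.61, and -1.72 with 13 of 13 negative without knockout replicate 2). Their median level relative to each gene's own mean was 1.46 in control replicate 1 and -0.24 in control replicate 2, against -0.21 and 0.10 for the members. Ltf, the iron-binding protein lactoferrin of secondary granules, read 14.69 and 13.03 in controls and 10.84, 14.86 and 12.66 in knockouts. Control replicate 1 was above control replicate 2 for 13 of 13 of these genes and for 2 of 5 members. This was not particular to later neutrophil genes. Control replicate 1 was also the higher for 9 of 12 granulocyte-monocyte progenitor genes, 4 of 4 protease inhibitors and 14 of 14 macrophage genes. It was the higher for 3 of 9 mast cell, basophil and eosinophil genes and 0 of 14 stem cell and gate genes. These contrasts were not tested. In knockout replicates 1 and 2 the later neutrophil genes (-2.26 and 1.65) and the members (-0.75 and 1.20) went the same way. Later neutrophil genes such as Ngp and S100a8 reached 15.01 and 15.11 in knockout replicate 2 and 15.04 and 15.09 in control replicate 1. These values were near the maximum of both arrays. The part of later neutrophil genes in the members' result was not tested.

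Granulocyte-monocyte progenitor genes other than the members were measured for 12 of 15, with 0 called and 7 with a higher mean in knockouts (median 0.08; without knockout replicate 2, 9 of 12 were negative with a median of -0.89). Knockout replicate 2 was highest for 11 of 12. Cst7, a cystatin that inhibits cathepsin C, read 8.08 and 8.13 in controls and 7.74 and 9.41 in knockout replicates 1 and 2, with replicate 3 just below the controls. Plac8, the gene of smallest p in this list, did not share the low value of knockout replicate 1: it read 11.42 and 12.22 in controls and 12.91, 13.25 and 12.11 in knockouts, a difference of 0.94 (SE 0.44, limma adjusted p = 1). Hp, haptoglobin, spanned 4.31 and read 12.55 and 10.60 in controls and 9.43, 13.74 and 10.35 in knockouts. Its control replicate 1 was thus high, unlike in the members. The median relative level of this list was 0.52 in control replicate 1 and -0.57 in control replicate 2, against -0.21 and 0.10 for the members.

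Marker lists of other cells also varied between the arrays, and their part in the members' values was not tested. Of 16 listed mast cell, basophil and eosinophil genes 9 were tested, 0 were called, and the list's median lay 2.96 above the mean of the other arrays in knockout replicate 2. Its summed log2 level was 14.18 in that array, 10.08 and 11.09 in the other knockouts and 11.64 and 11.02 in controls. Its median difference was 0.90, and 0.01 without that array. For 2 of the 9 genes, Cpa3 and the basophil protease gene Mcpt8, each knockout lay above both controls (3.61% of all probe sets). Cpa3, a mast cell protease, read 5.94 and 7.44 in controls and 8.35, 9.31 and 7.84 in knockouts, above both controls in 3 of 3 (difference 1.81, SE 0.64, unadjusted p = 0.0399, limma adjusted p = 1; 1.41 without knockout replicate 2).

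Immediate early genes (10 of 12 tested, 0 called) had a summed log2 level of 15.41 in knockout replicate 2 and 11.27 to 11.77 elsewhere, with a median difference of 0.99, and -0.18 without that array. Of 14 macrophage genes tested, 0 were called, 13 had a lower mean in knockouts, 7 had an unadjusted p under 0.05 (1.13% of all probe sets), and for 11 each knockout lay below both controls (4.34% of all). Their median difference was -1.79, and -1.34 without knockout replicate 2. Their summed levels, which weigh bright genes most, were 15.28 and 14.37 in controls and 12.83, 13.29 and 14.15 in knockouts. By gene the order of the arrays differed. The median level relative to each gene's own mean was -0.86 in knockout replicate 1 and -1.35 in knockout replicate 2, where the members were highest. Knockout replicate 1 was lowest for 5 of 14 macrophage genes.

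Stem cell and gate genes (14 of 16 tested, 0 called) differed from the mean of the other arrays by a median of -1.93 in knockout replicate 2, although Il7r and Cd48 lay 2.92 and 1.63 above them there. The median difference of this list was -0.63, and -0.05 without that array. Gate genes of other blood lineages (11 of 14 tested, 0 called) were mixed: knockout replicate 2 was highest for 6 of 11. The B cell gene Ms4a1 lay furthest above the mean of the other arrays there, by 4.55, with 11.49 against 6.12 to 8.24. Itgam, the integrin CD11b of mature myeloid cells, lay 2.69 above it, with 8.83 there and 4.42 in knockout replicate 1. The platelet genes Pf4 and Itga2b differed from the mean of the other arrays in knockout replicate 2 by -1.93 and -1.52. The list's median difference was 0.20, and -0.16 without that array.

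**Figure D3:**
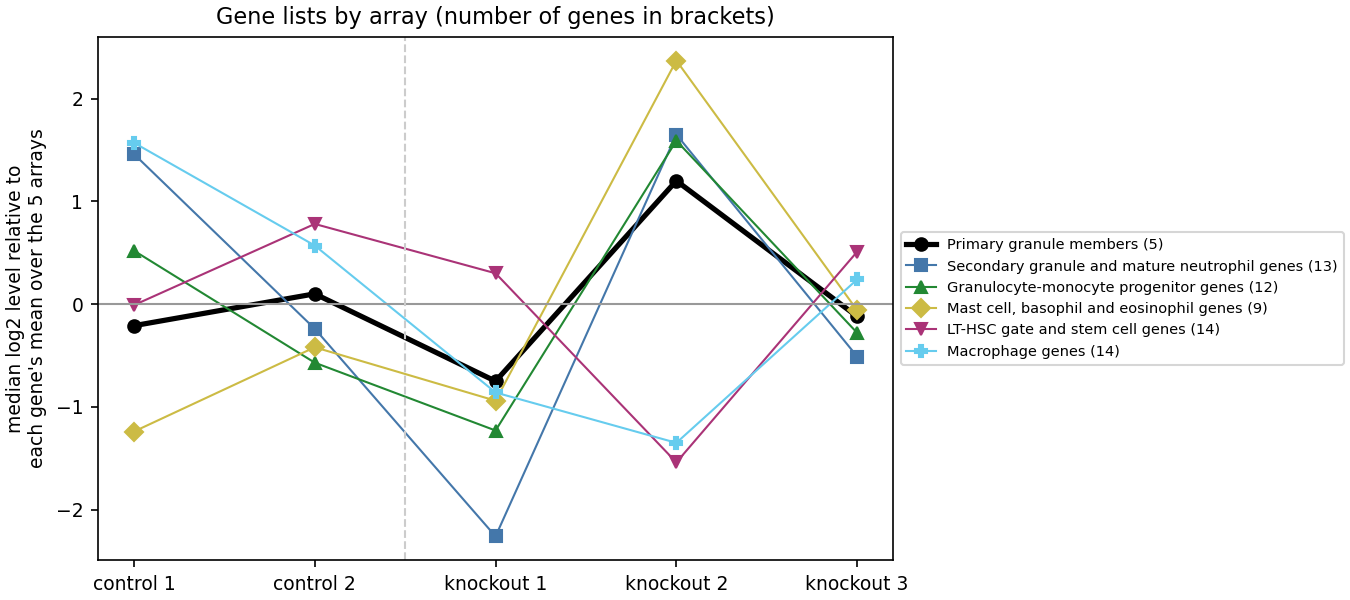
Median log2 level of each gene list relative to each gene's mean over the 5 arrays (y axis), by array (x axis); lines only join the values of a list. The members lie at 1.20 in knockout 2 and -0.75 in knockout 1, and at -0.21 in control 1. Later neutrophil genes lie at 1.46 and granulocyte-monocyte progenitor genes at 0.52 in control 1.

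The chromosomal neighbours gave a further view, since Elane and Prtn3 are adjacent and the other members lie in clusters of related genes. Of 16 listed neighbours 13 were tested and 0 were called, with a median difference of 0.50, and 0.03 without knockout replicate 2. Each knockout lay above both controls for 2 of 13 (3.61% of all probe sets) and below both for 1 of 13 (4.34% of all). Beside Mpo lies Lpo, lactoperoxidase. Epx, the eosinophil peroxidase, was listed with it but is not adjacent to Mpo. Lpo read 5.57 to 5.97 in the 5 arrays, at the level of dim probe sets, while Epx read 6.67 and 8.44 in controls and 5.34, 11.45 and 8.52 in knockouts. Epx thus had the extremes of Mpo over a range of 6.10, against 1.39. Beside Ctsg lies Mcpt8, a basophil protease, which read 5.76 and 5.80 in controls and 6.06, 10.92 and 6.84 in knockouts. Each knockout thus lay above both controls, with a difference of 2.16 (SE 1.56), and 0.67 without knockout replicate 2. Cma1, a mast cell chymase of this cluster, read 5.63 to 6.30.

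Around Ms4a3, the adjacent Ms4a2, the beta chain of the high-affinity IgE receptor, read 9.09 in knockout replicate 2 and 6.30 to 6.55 elsewhere. Ms4a6d, of the same cluster, read 7.34 and 7.30 in controls and 6.51, 8.35 and 6.92 in knockouts, with the extremes of Ms4a3; its probe set name contains _s_at and may share probes with related transcripts. Ms4a4b differed from both, with 8.66 and 9.50 in knockout replicates 1 and 2 and 4.91 to 5.99 elsewhere. Ms4a6c read 8.75 and 9.23 in controls and 9.85, 11.75 and 9.28 in knockouts, each above both controls. Ms4a7 read 10.01 and 9.33 in controls and 8.46, 8.49 and 9.27 in knockouts, each below both controls (difference -0.93, SE 0.36). Near the pair Prtn3 and Elane, the Mediator subunit gene Med16 was lowest in knockout replicate 2, with 8.47 there and 9.11 to 9.57 elsewhere.

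**Figure D4:**
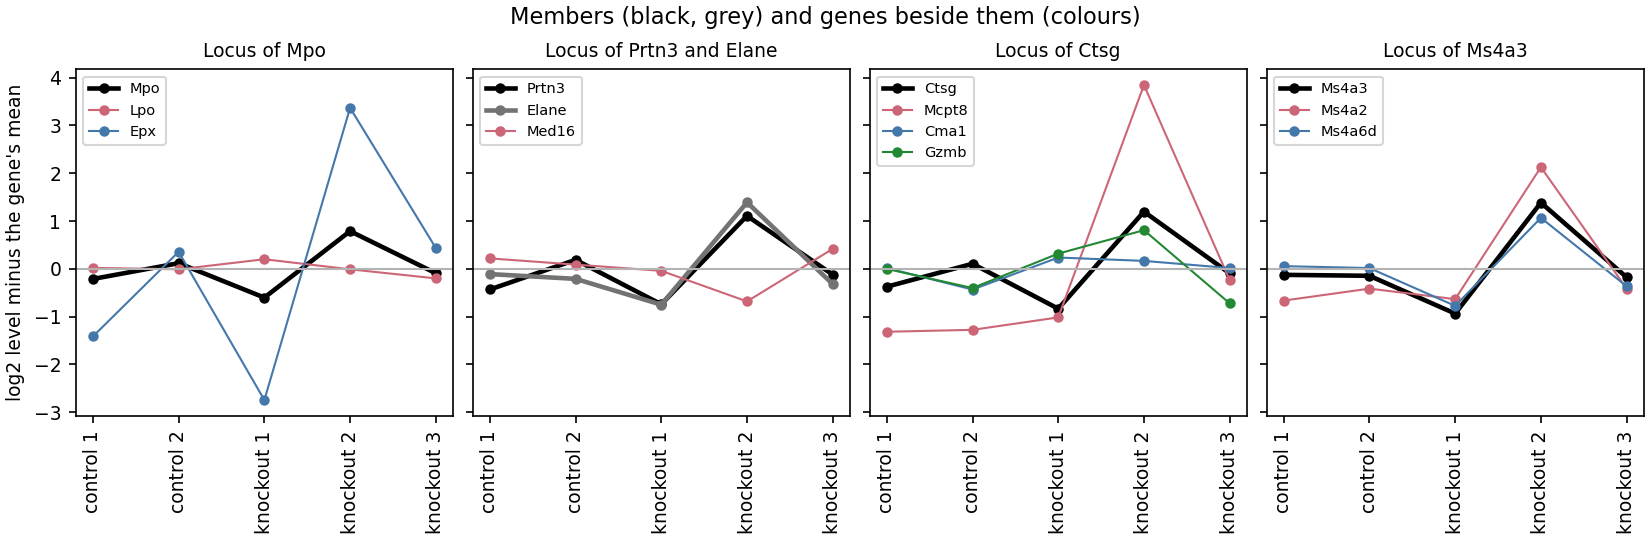
Log2 level minus each gene's mean (y axis) by array (x axis) for the members (black and grey) and for genes of the same chromosomal region (colours); lines only join the values of a gene. Epx, Mcpt8 and Ms4a2 are highest in knockout 2 as the members are, Lpo and Cma1 stay near 0, and Med16 is lowest there.

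By the likeness measure (root-mean-square difference from the members' mean centred profile over the 5 arrays), 10 of 12808 other genes had values of 0.06 to 0.16, where the members had 0.08 to 0.20 and the median gene 0.71. They were, in order, Rassf4, Zfp516, Perp, Bcl10, Cers6, Cst7, Gfod1, Rin3, Eif2ak3 and Tm6sf1. Rassf4, of the Ras-association domain family, read 9.64 and 9.88 in controls and 9.01, 10.90 and 9.59 in knockouts. Eif2ak3, which encodes the endoplasmic reticulum stress kinase PERK, read 9.16 and 9.00 in controls and 8.53, 10.24 and 8.95 in knockouts. Bcl10, an adaptor of NF-kappaB signalling, reached 11.72 in knockout replicate 2, against 9.87 to 10.46 in the other arrays. The likeness rests on 5 arrays that share these 2 extremes. Each member is itself part of the mean profile, and the 10 genes were picked as the closest. Their ranges therefore cannot be compared as a test.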

How the data were processed

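RNA of sorted LT-HSCs was prepared with a microprep kit and amplified by a pair of in vitro transcription rounds, per the labels' protocols. The authors deposited log2 intensities, 1 per probe set and array, and the submitters' processing notes name RMA and Affymetrix Expression Console, without versions. RMA equalises the distributions of the arrays.

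Of 45101 rows, 64 Affymetrix control probe sets were left out, and the 40% of the remaining 45037 with the lowest mean (below 5.77) were not tested, which left 27022. The platform annotation gave 34945 probe sets 1 symbol, 932 several and 9160 none; a gene in a list was read from its brightest single-symbol probe set. Control was compared with knockout in limma 3.58.1 under R 4.3.3 (lmFit, eBayes, two-sided, Benjamini-Hochberg over all probe sets tested, threshold 0.05), and members also by exact permutation. The limma script was also tested on simulated data. Of the 168 entries in 12 gene lists, 141 had a single-symbol probe set and 131 passed the filter; other entries were not analysed here. Summed levels are log2 of the sum of linear intensities over a list's tested genes. Named genes were the members, up to 4 list genes of smallest p, up to 2 of the brightest, a short set of granule genes and regulators written down with the lists, and the 10 genes of most like profile; values of other list genes were chosen after they were seen. The members and lists were chosen with earlier results of these data known. Promoter letters were chosen after the windows were seen. The number of arrays limits the precision.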

Additional observations from a re-analysis of the deposited data

How the results depend on the processing

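Adjusted p-values of the members lay between 0.856 and 1 in the main fit and its alternatives, and 0 member probe sets and 0 of all probe sets were called in each of them (0 of 5 members and 306 of all had an unadjusted limma p under 0.05 in the main fit). Directions kept under another eBayes prior, no filter, a filter on the lowest 60%, cyclic loess and median centring, with 0 members whose groups did not overlap under either scaling; each member had 1 probe set, so averaging probe sets changed nothing. With limma's array weights the 5 differences turned negative: -0.47 for Mpo, -0.50 for Elane, -0.50 for Prtn3, -0.57 for Ctsg and -0.66 for Ms4a3. The weights were 0.20 for knockout replicate 2 and 7.67 for knockout replicate 1. Leaving out single arrays gave -0.30 to 0.39 for Mpo, -0.38 to 0.70 for Elane, -0.31 to 0.61 for Prtn3, -0.33 to 0.69 for Ctsg and -0.42 to 0.74 for Ms4a3. The low end was without knockout replicate 2 and the high end without knockout replicate 1. Without control replicate 1, Mpo (-0.087), Prtn3 (-0.11) and Ctsg (-0.012) also turned negative; the cause was not tested. With the replicate number as a block the differences were 0.14, 0.48, 0.31, 0.32 and 0.36 for Mpo, Elane, Prtn3, Ctsg and Ms4a3, those obtained without knockout replicate 3, since no control has that number. The deviations of same-numbered arrays from their group means correlated at -0.538 and -0.570. The 2 controls deviate from their mean by equal and opposite amounts, so these values do not settle whether the numbers pair the arrays. Signals near 5.77 are close to background, which limits Lpo, Cma1, Mcpt8, Epx and Ms4a4b in the dim arrays.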
